A study of Mus musculus with 27 samples.

Results

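The early phase of fetal brain development, gestational day (d) 12 to d15, was examined in the C57BL/6J mouse, an inbred long-lived strain that serves as the reference strain of mouse genetics. The comparison was chosen by strain and day from the sample labels and used 6 of the 27 libraries of the series, the brains of 3 fetuses on d12 and of 3 fetuses on d15. All 6 fetuses were female and came from mice that were about 8 weeks old when mated, with the day of the vaginal plug counted as day 1, and each whole brain was taken from a fetus frozen beforehand. Poly-A mRNA was sequenced, and the values are reads per gene. A Cav1-null strain (B6.Cg-Cav1tm1Mls/J, which lacks caveolin 1) with 3 fetuses on each of the same days is used for 1 contrast. In whole-brain RNA, fewer cells of a type and less RNA per cell cannot be told apart, and the labels do not say whether fetuses of a day shared a litter, so the p-values measure the spread between these samples.

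At these ages the neural tube lining is turning from a sheet of dividing progenitors into a layered brain. Radial glia, the neural stem cells of the fetal brain, first divide symmetrically, then give rise to intermediate progenitors and neurons, and only later to glia, and they carry temporal identity genes that change as they age. Newborn neurons leave the cycle, migrate outward, extend axons and begin to assemble the channels, receptors and release machinery of synapses.

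The 6 libraries held 30527723 to 39759702 reads, and 19154 genes had enough reads to be tested. Values are counts divided by the library total (the usual CPM unit) after edgeR's TMM scaling, listed in the order of replicates 1, 2 and 3. Correlations of log2 CPM among the d15 libraries lay between 0.983 and 0.986, while d12 replicate 3 had a mean correlation of 0.936 with the d15 libraries, below the 0.962 of d12 replicate 1 and the 0.974 of d12 replicate 2. Every pair of replicates differed by more than sampling noise, so none was the same library deposited again. Xist, the transcript of the inactive X chromosome, lay between 2836 and 3969 CPM and Y-linked genes at no more than 0.197 CPM, as the labelled sex requires.

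Regional marker genes differed between libraries of the same day. En1, En2 and Pax5, transcription factor genes that mark the midbrain and anterior hindbrain, were far lower in d12 replicate 1 than in the other libraries. En1 stood at 0.773, 27.2 and 23.7 CPM on d12 and 19.5, 18.6 and 16.1 CPM on d15, and En2 at 3.18, 85 and 105 CPM on d12 and 42.8, 49.7 and 42.6 CPM on d15. Pax5 likewise stood at 0.433, 60.2 and 46.5 CPM on d12 and 28.6, 31.04 and 26.6 CPM on d15, so the other 5 libraries lay far above d12 replicate 1 for all 3 genes. Emx1, Six3 and Nkx2-1, transcription factor genes that mark parts of the forebrain, were lowest in d12 replicate 3. Emx1 stood at 30.98, 44.7 and 14.5 CPM on d12 and 30.6, 31.4 and 25.2 CPM on d15, Six3 at 54.7, 53.5 and 30.99 CPM on d12 and 52.1, 56.3 and 41.5 CPM on d15 and Nkx2-1 at 106, 44.2 and 20.9 CPM on d12 and 48.2, 51.2 and 44.2 CPM on d15. Hox genes mark the posterior hindbrain and spinal cord, and their transcripts were largely found in d15 replicate 3. The summed level of the 14 listed Hox genes was 1.42, 0.349 and 2.63 CPM on d12 and 0.737, 0.351 and 171 CPM on d15, and 12 of the 14 were highest in d15 replicate 3. In that library Hoxa5 reached 45.4 CPM, against at most 0.124 CPM in the other 5. Transcripts of connective tissue and cartilage, such as collagens, summed to 681, 1278 and 1624 CPM on d12 and 5883, 661 and 892 CPM on d15, and those of skeletal muscle to 11.9, 20.6 and 18.8 CPM on d12 and 94.2, 15.5 and 16.1 CPM on d15, in both cases highest in d15 replicate 1. The part of these regional and tissue transcripts in the differences between days was not tested, and results are therefore given library by library and, where they change, without the library concerned.

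**Figure D1:**
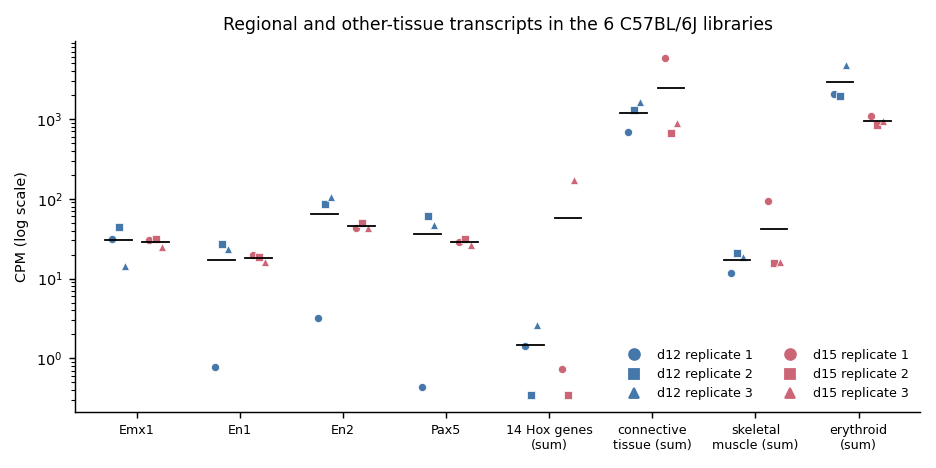
Levels in CPM on a log axis of Emx1, En1, En2 and Pax5 and summed levels of 14 Hox genes, connective tissue, skeletal muscle and erythroid transcripts, by library. Points are the 6 libraries and bars the mean of each day. En1, En2 and Pax5 are lowest in d12 replicate 1, Emx1 in d12 replicate 3, the Hox sum is 170.7 CPM in d15 replicate 3 and at most 2.63 CPM elsewhere, and the connective tissue sum is 5883 CPM in d15 replicate 1.

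A gene was called differentially expressed (DE) at a Benjamini-Hochberg adjusted p under 0.05 in edgeR's quasi-likelihood test, and every adjusted p below comes from that test. With that rule 14.9% of the tested genes were DE, 7.08% higher and 7.8% lower on d15, and the median log2 fold change (d15 over d12) over all tested genes was -0.04. A count that uses no p-value, though the same filter and TMM scaling, is that of genes whose d12 and d15 libraries did not overlap. This held for 21.7% of genes in the higher and 23.4% in the lower direction. These percentages are the background against which the counts of each gene list are to be read. The number of calls depended on which libraries were included. Leaving out d12 replicate 1 left 330 DE genes, and leaving out d15 replicate 1, 2 or 3 left 6, 0 and 2. In the fit with none, 4920 genes had an unadjusted p under 0.05 in edgeR's test, and no DE gene passed in the opposite direction in any of these fits. Leaving out d12 replicate 2 or 3 gave 5958 and 3267. Each of these fits has its own background. Without d12 replicate 1, 0.586% of tested genes were higher and 1.08% lower, without d12 replicate 2, 15.2% and 14.5%, and without d12 replicate 3, 8.96% and 7.51%, and list counts given for a fit without 1 library are to be read against the shares of that fit. In the fits without 1 d15 library no list described below kept a DE member, except for Slc7a11 without d15 replicate 1, so the list counts below are those of all 6 libraries. Some lists share members.

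The lists also placed the libraries of 1 day at different points. D12 replicate 3 was the highest of the 6 libraries in 52 of 56 mitosis genes and the lowest in 39 of 40 synaptic release genes, 39 of 40 channel genes and 35 of 39 receptor genes. Among the d15 libraries, replicate 3 was the lowest of all 6 in 50 of 56 mitosis genes and the highest in 36 of 40 release genes. D12 replicate 3 was also the library with the least Emx1 and the most erythroid transcripts, and d15 replicate 3 that with the Hox transcripts, and the part of these differences in the lists was not tested.

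**Figure D2:**
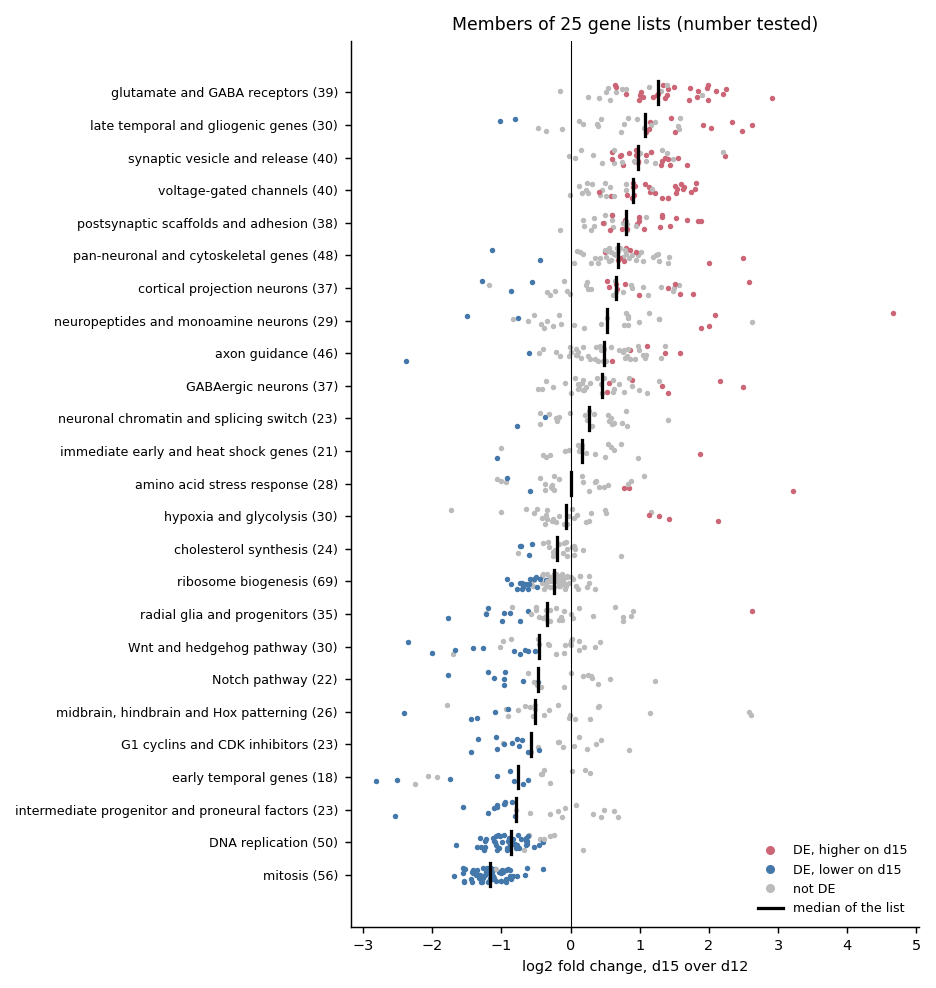
Log2 fold changes (d15 over d12, horizontal axis) of the members of 25 brain gene lists, 1 row a list with the number of tested members in parentheses, sorted by the median of the list (black bar). Each point is a gene, coloured by whether it was DE and in which direction. The medians run from -1.16 for mitosis to 1.26 for glutamate and GABA receptors.

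The machinery of cell division was lower on d15 in nearly every gene listed. Of 56 tested genes of mitosis, 55 fell and none rose, with a median log2 fold change of -1.16, and in all 56 every d15 library lay below every d12 library. Cks2, a subunit of the cyclin-dependent kinases, changed most in this list. It stood at 50.1, 33.3 and 66.2 CPM on d12 and 16.4, 15.8 and 14.3 CPM on d15 (log2 fold change of -1.69 ± 0.24, adjusted p = 0.0176). Birc5 encodes survivin of the chromosomal passenger complex and stood at 60.04, 43.97 and 83.5 CPM on d12 and 21.6, 22.98 and 19.4 CPM on d15 (log2 fold change of -1.55 ± 0.23, adjusted p = 0.0178). The groups were apart for both genes, and d12 replicate 3 was the highest library. Cdk1, the kinase that drives entry into mitosis, stood at 79.1, 63.5 and 105 CPM on d12 and 37.3, 34.96 and 29.4 CPM on d15 (log2 fold change of -1.28 ± 0.19, adjusted p = 0.0179). Its partner cyclins Ccnb1 and Ccnb2 fell by 1.43 and 1.32 on the log2 scale, and Cenpa, the histone H3 variant of centromeres, and Cenpk, a kinetochore subunit, fell by 1.53 and 1.55 on the log2 scale. The single member that was not DE was Sgo2a, a protector of centromeric cohesion, at 16.01, 11.9 and 26.7 CPM on d12 and 8.64, 9.57 and 7.71 CPM on d15 (log2 fold change of -1.07 ± 0.29, adjusted p = 0.0501). Leaving out d12 replicate 1 left 21 of the 56 DE, and leaving out d12 replicate 2 or 3 made all 56 DE. The median of the list lay between -1.297 and -0.96 over all fits that left out 1 library.

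DNA replication followed the same direction. Among 50 tested genes, 43 fell and none rose, at a median of -0.86, and 49 were lower in every d15 library than in any d12 library. Gmnn, which encodes geminin, the inhibitor that stops origins from being licensed again within a cycle, showed the largest fall. It stood at 28.8, 16.5 and 39.8 CPM on d12 and 8.16, 9.62 and 9.22 CPM on d15 (log2 fold change of -1.66 ± 0.301, adjusted p = 0.0232). Pcna, the sliding clamp of the polymerases, stood at 175, 159 and 253 CPM on d12 and 91.3, 73.8 and 65.8 CPM on d15 (log2 fold change of -1.34 ± 0.21, adjusted p = 0.0183). Rfc4, a subunit of the clamp loader, fell by 1.305 on the log2 scale. For all 3 genes d12 replicate 2 came closest to the d15 libraries without overlapping them. The helicase subunits had smaller fold changes. Mcm3 stood at 70.1, 115 and 88.7 CPM on d12 and 61.4, 55.8 and 49.4 CPM on d15 (log2 fold change of -0.72 ± 0.18, adjusted p = 0.0445), Mcm4 had a log2 fold change of -0.65 ± 0.16 (adjusted p = 0.0400), and Mcm2, at -0.67 ± 0.18, missed the threshold (adjusted p = 0.0503). Dnmt1, the maintenance DNA methyltransferase, was the exception with overlapping libraries at 202, 303 and 180.4 CPM on d12 and 259, 269.9 and 245 CPM on d15. Without d12 replicate 1, 11 of the 50 were DE, and the median ranged from -0.94 to -0.73.

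**Figure D3:**
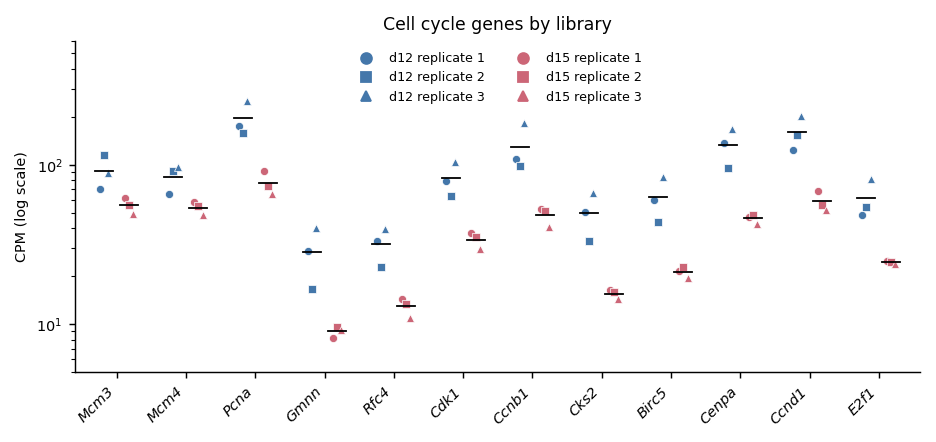
Levels in CPM on a log axis of 12 cell cycle genes in the 3 d12 and 3 d15 C57BL/6J libraries, with the mean of each day as a bar. In each of the 12 genes all d15 libraries lie below all d12 libraries, for example 14.3 to 16.4 CPM against 33.3 to 66.2 CPM for Cks2.

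Replication and mitosis genes are known for different promoter elements, E2F sites for the former and the CCAAT box with the cell cycle homology region for the latter, and the promoters of both lists were searched for these letters. The window was 250 bases before to 50 bases after the start of the canonical transcript in GRCm39, both strands, with TTTCCCGC, TTTGGCGC, TTTCGCGC or TTTGCCGC as E2F site, CCAAT as CCAAT box and TTTGAA or TTCGAA as cell cycle homology region. An E2F site was present in 13 of 50 replication promoters (26%) and in 3 of 56 mitosis promoters (5.36%), against 2.82% of 21770 promoters of protein-coding genes. The cell cycle homology region had the reverse distribution, with 31 of 56 mitosis promoters (55.4%) and 4 of 50 replication promoters (8%), against 18.8% of all. The CCAAT box was in 39 mitosis promoters (69.6%) and 29 replication promoters (58%), against 39.9% of all, and both mitotic elements stood together in 44.6% of mitosis promoters, 6% of replication promoters and 8.25% of all. These shares are descriptions, and a match is not a bound site. The bases upstream of the start site are shown, with letters matched on either strand in capitals, for 2 kinds of member. For each list they are the 2 members with the largest falls, and 2 further DE members chosen because they hold the list's element or elements upstream of the start site and no UTR in the window. For the replication list these are a 30-base stretch of Gmnn (minus strand, chr13:24946127-24946156), the 250 bases of Pcna (minus strand, chr2:132095235-132095484), which hold no match, and, as members with an E2F site, Pola1 of the primase complex (minus strand, chrX:92675814-92676063) and the helicase gene Mcm5 (plus strand, chr8:75835890-75836139).
Gmnn: tctcgtgTTTGCCGCtagtgagagtctctt
Pcna: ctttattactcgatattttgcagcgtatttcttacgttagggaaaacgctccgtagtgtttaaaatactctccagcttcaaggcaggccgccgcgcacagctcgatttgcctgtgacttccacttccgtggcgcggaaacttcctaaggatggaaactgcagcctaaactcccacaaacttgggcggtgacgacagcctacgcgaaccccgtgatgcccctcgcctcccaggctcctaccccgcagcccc
Pola1: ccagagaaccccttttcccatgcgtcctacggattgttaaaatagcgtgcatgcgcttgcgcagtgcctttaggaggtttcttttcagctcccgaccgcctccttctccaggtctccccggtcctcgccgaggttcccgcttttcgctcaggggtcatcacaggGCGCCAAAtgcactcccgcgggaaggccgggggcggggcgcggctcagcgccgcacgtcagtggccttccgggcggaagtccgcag
Mcm5: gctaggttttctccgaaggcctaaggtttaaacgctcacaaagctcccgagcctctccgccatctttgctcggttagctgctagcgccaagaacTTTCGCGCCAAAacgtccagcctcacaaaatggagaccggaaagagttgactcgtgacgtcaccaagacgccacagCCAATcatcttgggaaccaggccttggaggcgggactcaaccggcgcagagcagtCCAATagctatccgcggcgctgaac
For the mitosis list they are Cks2 (plus strand, chr13:51799018-51799267) and Cenpk (plus strand, chr13:104364801-104365050), which hold CCAAT boxes alone, and Ccnb2 (minus strand, chr9:70328875-70329124) and the cytokinesis gene Ect2 (minus strand, chr3:27208030-27208279), which hold both elements upstream of the start.
Cks2: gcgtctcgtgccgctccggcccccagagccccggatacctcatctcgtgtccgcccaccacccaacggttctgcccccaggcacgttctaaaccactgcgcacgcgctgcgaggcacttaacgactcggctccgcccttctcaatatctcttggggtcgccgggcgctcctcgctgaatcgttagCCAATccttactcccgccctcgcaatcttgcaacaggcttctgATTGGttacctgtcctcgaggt
Cenpk: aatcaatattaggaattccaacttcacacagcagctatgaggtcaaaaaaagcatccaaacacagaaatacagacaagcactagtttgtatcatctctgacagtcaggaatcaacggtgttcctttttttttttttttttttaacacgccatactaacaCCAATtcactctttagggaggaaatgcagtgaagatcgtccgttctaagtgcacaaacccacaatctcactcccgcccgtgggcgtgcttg
Ccnb2: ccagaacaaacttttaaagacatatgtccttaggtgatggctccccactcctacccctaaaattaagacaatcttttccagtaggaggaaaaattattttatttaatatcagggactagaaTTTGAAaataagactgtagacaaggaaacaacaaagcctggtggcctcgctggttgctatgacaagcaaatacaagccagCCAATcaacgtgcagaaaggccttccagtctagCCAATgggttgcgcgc
Ect2: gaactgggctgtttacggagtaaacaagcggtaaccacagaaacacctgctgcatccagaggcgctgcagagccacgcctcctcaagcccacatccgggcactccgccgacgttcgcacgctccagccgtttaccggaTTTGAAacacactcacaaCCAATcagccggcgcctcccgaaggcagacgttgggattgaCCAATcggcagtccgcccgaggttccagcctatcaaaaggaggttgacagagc
In Ccnb2 the homology region match that is shown lies at positions -129 to -124 from the start site, before the CCAAT boxes shown at -49 to -45 and -16 to -12. The whole searched window of Ccnb2 holds 2 homology region matches and 3 CCAAT boxes, so that 1 of each lies outside the bases shown, and the same counts hold for Ect2. In Mcm5 the E2F matches overlap at -156 to -149 and -152 to -145. Pola1 had a log2 fold change of -0.89 ± 0.15 (adjusted p = 0.0202), Mcm5 of -0.76 ± 0.15 (adjusted p = 0.0254) and Ect2 of -1.12 ± 0.18 (adjusted p = 0.0191).

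Genes of cell cycle entry fell in part. Among 23 tested G1 cyclins, their kinases, E2F factors and inhibitors, 11 fell and none rose (median -0.57). Ccnd1, the D-type cyclin of progenitors, stood at 124, 153 and 201 CPM on d12 and 68.2, 56.1 and 52.2 CPM on d15 (log2 fold change of -1.44 ± 0.19, adjusted p = 0.0162), and E2f1, the transcription factor it releases, at 48.5, 54.4 and 81.9 CPM on d12 and 25.04, 24.4 and 23.9 CPM on d15 (log2 fold change of -1.33 ± 0.196, adjusted p = 0.0178). Its sister cyclins were not DE. Ccnd2 overlapped between days, at 547, 686 and 545 CPM on d12 and 542, 549 and 471 CPM on d15, and Ccnd3 did so too (log2 fold change of -0.47 ± 0.22, adjusted p = 0.175). Ccne1 and Cdk2, the cyclin and kinase of S phase entry, fell by 1.08 and 1.06 on the log2 scale. The fit without d12 replicate 1 had 6 of them DE. Ribosome biogenesis, which growing cells need, shifted slightly, with 17 of 69 genes lower, none higher and a median of -0.24. Npm1, the nucleolar chaperone, stood at 554, 483 and 867 CPM on d12 and 344, 347 and 318 CPM on d15 (log2 fold change of -0.92 ± 0.22, adjusted p = 0.0374), whereas Ncl, nucleolin, at 488, 583 and 750.1 CPM on d12 and 481, 480 and 439 CPM on d15, did not pass (log2 fold change of -0.38 ± 0.17, adjusted p = 0.150). Without d12 replicate 1 only 1 ribosome biogenesis gene was DE, and without d12 replicate 2, 6 of the 69 rose, a smaller share than over all genes in that fit, and 24 fell.

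Radial glia genes had a smaller median change than the cell cycle lists. Of 35 tested genes, 8 fell and 1 rose, with a median of -0.33, and their summed level was 5429, 6334 and 5377 CPM on d12 and 5256, 5336 and 5143 CPM on d15. Sox2, the transcription factor of neural stem cells, stood at 196, 195 and 158 CPM on d12 and 145, 157 and 148 CPM on d15, apart between days but short of the threshold (log2 fold change of -0.29 ± 0.11, adjusted p = 0.117). Pax6, which specifies dorsal telencephalic progenitors, stood at 136, 104 and 103 CPM on d12 and 74.4, 78.9 and 69.9 CPM on d15 (log2 fold change of -0.62 ± 0.13, adjusted p = 0.0302). Nes, the intermediate filament nestin, overlapped between days at 319, 533 and 443 CPM on d12 and 309, 339.8 and 293 CPM on d15. Hes5, a Notch effector, fell further, at 33.4, 36.6 and 65.4 CPM on d12 and 12.9, 13.5 and 13.1 CPM on d15 (log2 fold change of -1.77 ± 0.26, adjusted p = 0.0178), and Tead2, a partner of YAP, and Nde1, a centrosomal protein needed for progenitor division, fell by 1.21 and 1.19 on the log2 scale. Tnc went the other way. It encodes the matrix protein tenascin C of the stem cell niche and stood at 21.4, 58.8 and 19.2 CPM on d12 and 226, 176 and 209 CPM on d15 (log2 fold change of 2.62 ± 0.43, adjusted p = 0.0202), with a log2 fold change of 3.33 without d12 replicate 2. The fit without d12 replicate 1 had 4 falling and no rising member, that without d12 replicate 2 had 8 and 3, and that without d12 replicate 3 had 12 and 5.

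Of the temporal identity genes, 8 of 18 in the early list fell and none rose (median -0.75), and in the late and gliogenic list, 10 of 30 rose and 2 fell (median 1.08). The other members, 10 early and 18 late, were not DE. Hmga2, a chromatin protein of young stem cells located at chr10:120197173-120313095 in GRCm39, stood at 45.4, 41.1 and 97.9 CPM on d12 and 11.7, 10.7 and 9.99 CPM on d15 (log2 fold change of -2.51 ± 0.34, adjusted p = 0.0162). Igf2bp1, an RNA-binding protein of the same program, stood at 133, 132 and 169 CPM on d12 and 68.7, 69.8 and 69.5 CPM on d15 (log2 fold change of -1.06 ± 0.12, adjusted p = 0.0159). For both, d12 replicate 3 was the highest library and the days did not overlap. Lin28a, the let-7 antagonist, was low, at 1.33, 1.66 and 7.04 CPM on d12 and 0.356, 0.865 and 0.878 CPM on d15, with d12 replicate 3 above the rest, and did not pass (log2 fold change of -2.25 ± 0.72, adjusted p = 0.0711). Without d12 replicate 3 its log2 fold change was -1.095. Its paralog Lin28b overlapped between days (log2 fold change of -0.43 ± 0.18, adjusted p = 0.135). Crabp2, a retinoic acid-binding protein, stood at 29.5, 30.1 and 97.7 CPM on d12 and 7.53, 6.62 and 8.37 CPM on d15 (log2 fold change of -2.804 ± 0.49, adjusted p = 0.0217), and its log2 fold change was -1.99 without d12 replicate 3, the highest library. The zinc finger gene Sall4 fell by 1.75 on the log2 scale, and its log2 fold change was -1.08 without that library. Among late genes, Nfix of the nuclear factor I family, which promotes gliogenesis, stood at 113, 251 and 42.97 CPM on d12 and 571, 562 and 532 CPM on d15 (log2 fold change of 2.03 ± 0.55, adjusted p = 0.0489), while Nfib and Nfia were higher in every d15 library without passing (adjusted p = 0.0579 and 0.0906). Olig1, a factor of the oligodendrocyte lineage, stood at 7.48, 5.79 and 2.32 CPM on d12 and 22.3, 27.7 and 37.2 CPM on d15 (log2 fold change of 2.48 ± 0.41, adjusted p = 0.0204), and Hepacam, a glial adhesion protein, at 1.42, 3.55 and 0.501 CPM on d12 and 6.53, 8.79 and 12.3 CPM on d15 (log2 fold change of 2.33 ± 0.62, adjusted p = 0.0476). Without d12 replicate 2 the log2 fold changes of Nfix and Hepacam were 2.84 and 3.26. The mature astrocyte filament gene Gfap did not differ beyond the spread (adjusted p = 0.543). In 20 of the 30 late genes the lowest library was d12 replicate 3, that with the least Emx1, and without it 12 of 30 rose. Of the other fits, that without d12 replicate 1 left 1 late gene higher and 4 early genes lower, and that without d12 replicate 2 gave 15 late genes higher, 13 early genes lower and 1 early gene higher.

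Proneural factors and Notch signalling, which decide when a progenitor becomes a neuron, had members that fell on d15 and none that rose. Of 23 tested intermediate progenitor and proneural genes, 10 fell and none rose (median -0.79). Olig3, a factor of dorsal hindbrain, midbrain and thalamic progenitors, was among the largest falls in the table at 14.01, 19.2 and 21.3 CPM on d12 and 3.15, 2.84 and 3.43 CPM on d15 (log2 fold change of -2.53 ± 0.21, adjusted p = 0.00916). Neurog1, a proneural factor, stood at 8.53, 19.1 and 23.6 CPM on d12 and 7.32, 5.27 and 4.91 CPM on d15 (log2 fold change of -1.55 ± 0.37, adjusted p = 0.0385). Its relative Neurog2 was apart between days but did not pass (log2 fold change of -0.59 ± 0.16, adjusted p = 0.0521). Eomes, the marker of cortical intermediate progenitors, had no such difference. It stood at 66.9, 95.3 and 25.3 CPM on d12 and 103, 106 and 94.5 CPM on d15, overlapping between days and lowest in d12 replicate 3 (log2 fold change of 0.69 ± 0.41, adjusted p = 0.258). When d12 replicate 2 was left out, 9 of these genes fell and 4 rose. Olig3 and Neurog1 were lowest, among the d12 libraries, in replicate 1, that with the least En1, En2 and Pax5.

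In the Notch list, 8 of 22 fell and none rose (median -0.47), and the members that fell were ligands, modifiers and targets, with no receptor among them. The ligand Dll3 stood at 45.6, 61.5 and 57.6 CPM on d12 and 26.1, 25.1 and 25 CPM on d15 (log2 fold change of -1.11 ± 0.13, adjusted p = 0.0160), and the other ligand Dll1 fell by 0.95 on the log2 scale. Mfng, a glycosyltransferase that modifies Notch, stood at 92.01, 76.02 and 92.05 CPM on d12 and 38.9, 40.4 and 34.2 CPM on d15 (log2 fold change of -1.196 ± 0.12, adjusted p = 0.0152). The targets Hes5, given above, and Hes1 both fell, and for Hes1 the log2 fold change was -0.97. The receptors Notch1 and Notch2 overlapped between days, with log2 fold changes of -0.09 ± 0.18 and 0.29 ± 0.21, and Notch3, apart between days, had an adjusted p of 0.0592. The fit without d12 replicate 2 had 9 of the 22 lower and 4 higher. Of 30 Wnt and hedgehog genes, 10 fell and none rose (median -0.46), 5 of them without d12 replicate 1. Wnt8b, a ligand of the cortical hem, stood at 19.2, 24.1 and 33.4 CPM on d12 and 6.18, 6.87 and 6.15 CPM on d15 (log2 fold change of -1.998 ± 0.22, adjusted p = 0.0152), and Rspo1, a secreted enhancer of Wnt signalling, at 15.3, 17.6 and 33.5 CPM on d12 and 5.31, 4.62 and 3.101 CPM on d15 (log2 fold change of -2.35 ± 0.35, adjusted p = 0.0179). Rspo2 and the ligand Wnt3a fell by 1.41 and 1.66 on the log2 scale, while Wnt1 and Wnt3 overlapped between days. For Wnt8b, Rspo1, Rspo2 and Wnt3a too, d12 replicate 1 was the lowest of the d12 libraries.

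Genes of cortical projection neurons included more that rose than fell. Among 37, 11 rose and 3 fell (median 0.66), and 24 were higher in every d15 library. Bhlhe22, a factor of cortical neuron identity, stood at 40.1, 52.6 and 17.97 CPM on d12 and 99.9, 107 and 109 CPM on d15 (log2 fold change of 1.51 ± 0.34, adjusted p = 0.0336), a mean of 36.9 ± 17.5 CPM on d12 and 106 ± 4.95 CPM on d15 (SD, n = 3). Mef2c, a factor of maturing excitatory neurons, stood at 37.2, 31.3 and 18.2 CPM on d12 and 98.5, 103 and 95.5 CPM on d15 (log2 fold change of 1.77 ± 0.24, adjusted p = 0.0164). The netrin receptor Unc5d rose by 1.58 on the log2 scale. In these genes d12 replicate 3 was lowest, yet d12 replicates 1 and 2 were also below all d15 libraries. Tbr1, a factor of deep-layer neurons, at 120, 144 and 36.1 CPM on d12 and 222, 230 and 202 CPM on d15, was lowest in d12 replicate 3 and did not pass (log2 fold change of 1.12 ± 0.44, adjusted p = 0.114), and neither did Neurod2 or Neurod6 (adjusted p = 0.0963 and 0.118). The 3 that fell were Nrn1, which encodes neuritin, and Nhlh1 and Nhlh2, factors of newborn neurons, which fell by 0.55, 0.86 and 1.29 on the log2 scale. The forebrain gene Emx1 overlapped between days (log2 fold change of -0.05 ± 0.36, adjusted p = 0.937). Without d12 replicate 3, the library with the least Emx1, Six3 and Nkx2-1, 20 of the 37 rose and 3 fell (median 0.53). The counts were 3 higher and 2 lower without d12 replicate 1, and 18 higher and 4 lower without d12 replicate 2.

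In the GABAergic list, 7 of 37 tested genes rose and none fell (median 0.46). The defining enzyme genes were not DE, with Gad1 at 142, 118 and 66.9 CPM on d12 and 142, 148 and 157 CPM on d15 and Gad2 at 206, 166 and 115 CPM on d12 and 147, 166 and 148 CPM on d15, the latter overlapping between days. The largest rises were in genes known from striatal output neurons. Drd1, the D1 dopamine receptor, stood at 0.556, 1.05 and 0.626 CPM on d12 and 3.86, 4.46 and 4.28 CPM on d15 (log2 fold change of 2.49 ± 0.298, adjusted p = 0.0160), and Ppp1r1b, which encodes the signalling protein DARPP-32, at 3.74, 3.897 and 0.720 CPM on d12 and 12.6, 14.2 and 10.7 CPM on d15 (log2 fold change of 2.16 ± 0.54, adjusted p = 0.0413). Drd2 and the opioid precursor Pdyn rose by 1.41 and 1.33 on the log2 scale. Leaving out d12 replicate 1 left 1 rising gene, and leaving out d12 replicate 2 or 3 gave 10. The list median was 0.700 in the first of these fits and 0.22 in the last. In 28 of the 37 genes d12 replicate 3 was the lowest library. General neuronal and cytoskeletal genes had a median of 0.69, and 9 of 48 rose and 2 fell. Tubb3, the neuronal tubulin, stood at 1228, 1610 and 866 CPM on d12 and 1565, 1660 and 1660 CPM on d15, overlapping between days, and was not DE (log2 fold change of 0.399 ± 0.22, adjusted p = 0.229). Thy1, a surface protein of maturing neurons, stood at 1.05, 1.43 and 0.970 CPM on d12 and 5.898, 5.43 and 8.07 CPM on d15 (log2 fold change of 2.49 ± 0.27, adjusted p = 0.0152). Cntn1, an axonal adhesion protein, rose by 1.998 on the log2 scale, and St18, a zinc finger factor of newborn neurons, fell by 1.14 on the log2 scale. Here the fits without d12 replicate 1, 2 and 3 gave 1, 37 and 20 rising genes.

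In the 4 lists of synaptic transmission and excitability every DE gene rose. In the vesicle release list, 22 of 40 rose (median 0.98) and 37 were higher in every d15 library. Snap25, of the fusion complex, stood at 80.3, 73.4 and 56.5 CPM on d12 and 105, 119 and 133 CPM on d15 (log2 fold change of 0.76 ± 0.15, adjusted p = 0.0284). Syt1, the calcium sensor of release, stood at 101, 109.8 and 55.2 CPM on d12 and 177, 189 and 201 CPM on d15 (log2 fold change of 1.09 ± 0.24, adjusted p = 0.0321). Sv2c, a vesicle glycoprotein, changed most at 9.62, 14.8 and 3.69 CPM on d12 and 36.7, 27.4 and 68.1 CPM on d15 (log2 fold change of 2.23 ± 0.53, adjusted p = 0.0373), with d15 replicate 3 above the others. Cplx1, Doc2b and the active zone organiser Rims1 rose by 1.55, 1.68 and 1.44 on the log2 scale. On the receiving side, 19 of 38 scaffold and adhesion genes rose (median 0.801). Camk2b, a subunit of the calcium-dependent kinase of the synapse, stood at 63.8, 75.6 and 16.3 CPM on d12 and 172, 199 and 204 CPM on d15 (log2 fold change of 1.88 ± 0.49, adjusted p = 0.0446). Dlg2, the scaffold PSD-93, stood at 45.9, 49.7 and 15.7 CPM on d12 and 112, 119 and 128 CPM on d15 (log2 fold change of 1.69 ± 0.38, adjusted p = 0.0340), while its relatives Dlg1 and Dlg3 had log2 fold changes of -0.16 ± 0.13 and 0.19 ± 0.099 and were not DE. D12 replicate 3 was the lowest library in 39 of the 40 release and 37 of the 38 postsynaptic genes, and without it 32 of the 40 release genes and 27 of the 38 postsynaptic genes rose (medians 0.74 and 0.57). Without d12 replicate 2, 34 and 29 rose, and without d12 replicate 1 none of either list was DE in edgeR's test, though 32 of each had an unadjusted p under 0.05, at medians of 1.04 and 0.86.

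Receptors for glutamate and GABA had the largest median of the 25 brain lists. Of 39 tested, 26 rose and none fell (median 1.26), and 37 were higher in every d15 library than in any d12 library. Grm5, the metabotropic glutamate receptor 5 gene at chr7:87233376-87784594, stood at 13.3, 17.7 and 2.19 CPM on d12 and 68.9, 76.9 and 106 CPM on d15 (log2 fold change of 2.92 ± 0.64, adjusted p = 0.0319). Gria1, an AMPA receptor subunit, stood at 57.01, 50.2 and 17.1 CPM on d12 and 127, 135 and 144 CPM on d15 (log2 fold change of 1.71 ± 0.39, adjusted p = 0.0352). Gria2, the subunit that sets calcium permeability, was apart between days at 504, 439.6 and 232 CPM on d12 and 649, 680.2 and 644 CPM on d15, without passing (log2 fold change of 0.75 ± 0.26, adjusted p = 0.0911), and Gria3 rose by 1 on the log2 scale. For GABA, the metabotropic subunit Gabbr2 stood at 12.2, 23.03 and 4.16 CPM on d12 and 57.7, 55.6 and 73.8 CPM on d15 (log2 fold change of 2.25 ± 0.53, adjusted p = 0.0365, and a log2 fold change of 2.93 without d12 replicate 2), and the channel subunits Gabrg3 and Gabra5 rose by 2.204 and 2.097 on the log2 scale. Slc12a2, the chloride importer of immature neurons, was the single member with a fold change below 0 (log2 fold change of -0.15 ± 0.13, adjusted p = 0.422). Without d12 replicate 3, 31 of the 39 rose (median 0.97), and without d12 replicate 1, 1 did (median 1.35).

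Among 40 voltage-gated channel genes, 24 rose and none fell (median 0.897). The sodium channel Scn2a stood at 50.8, 58.2 and 29.5 CPM on d12 and 92.4, 101 and 109 CPM on d15 (log2 fold change of 1.13 ± 0.24, adjusted p = 0.0297), and Scn1a rose by 0.89 on the log2 scale. Scn3a, the sodium channel prominent before birth, overlapped between days at 213, 206 and 175 CPM on d12 and 206, 227 and 229 CPM on d15. The potassium channel Kcnq5 had a narrow spread, at 3.15, 3.29 and 2.63 CPM on d12 and 11.3, 9.41 and 11.1 CPM on d15 (log2 fold change of 1.81 ± 0.18, adjusted p = 0.0152). The calcium channel Cacna1e rose by 1.64 on the log2 scale and the inward rectifier Kcnj6 by 1.75. The fit without d12 replicate 1 left 3 of the 40 higher (median 0.92). Axon guidance genes were mixed, with 5 of 46 higher and 2 lower, shares near those over all genes (median 0.48). Robo3, the receptor that lets commissural axons cross the midline, stood at 78.9, 148 and 279 CPM on d12 and 25.9, 32.7 and 38.97 CPM on d15 (log2 fold change of -2.37 ± 0.43, adjusted p = 0.0232), whereas Nrp1, the semaphorin receptor, stood at 39.5, 54.7 and 23.6 CPM on d12 and 104, 98.6 and 102 CPM on d15 (log2 fold change of 1.37 ± 0.27, adjusted p = 0.0270). The ligands Sema3a, Sema3c and Sema3e rose by 0.59, 0.87 and 1.100 on the log2 scale. Robo3 was lowest among the d12 libraries in replicate 1. In the fits without d12 replicate 1, 2 and 3, the guidance genes that rose numbered 0, 21 and 16 and those that fell 1, 3 and 2. The guidance median was 0.29 without d12 replicate 3.

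**Figure D4:**
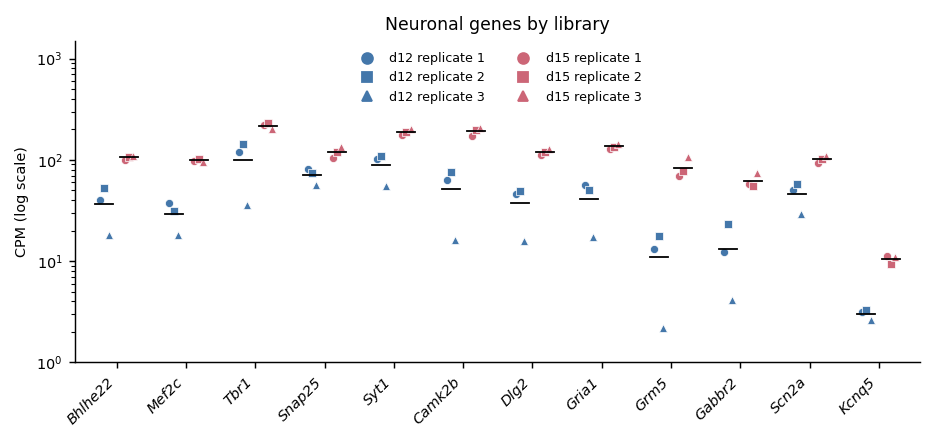
Levels in CPM on a log axis of 12 neuronal genes in the 3 d12 and 3 d15 C57BL/6J libraries, with the mean of each day as a bar. In all 12 every d15 library lies above every d12 library, and d12 replicate 3 is the lowest point of each gene. Tbr1 was not DE (adjusted p = 0.114), and the other 11 were.

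Regional patterning genes gave 5 of 26 tested members lower and none higher (median -0.51). Fgf8, the signal of the midbrain-hindbrain organiser, stood at 1.42, 2.67 and 2.47 CPM on d12 and 0.381, 0.406 and 0.439 CPM on d15 (log2 fold change of -2.41 ± 0.34, adjusted p = 0.0176), and Fgf17 of the same family fell by 1.43 on the log2 scale. Otx2, the factor of forebrain and midbrain, stood at 84.1, 120.4 and 187 CPM on d12 and 50.8, 54.2 and 48.8 CPM on d15 (log2 fold change of -1.35 ± 0.27, adjusted p = 0.0268), and Otx1 at 65.5, 80.3 and 79.8 CPM on d12 and 34.9, 38.2 and 32.2 CPM on d15 (log2 fold change of -1.098 ± 0.12, adjusted p = 0.0154). The d12 and d15 libraries were apart in these 4 genes. En1 and En2, far lower in d12 replicate 1 than elsewhere, had log2 fold changes of 0.07 ± 0.900 and -0.51 ± 0.91. Without that library they were -0.50 and -1.07, En2 then being DE, and 12 of 29 tested members were lower, at a median of -0.84. The list median was smaller in size without d12 replicate 2, d12 replicate 3 or d15 replicate 1, at -0.22, -0.21 and -0.22. Pax2 stood at 0.0618, 4.19 and 3.07 CPM on d12 and 4.78, 5.62 and 34.2 CPM on d15, highest in d15 replicate 3, which also held the Hox transcripts. Of the 14 Hox genes, 1 passed the filter on low counts.

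Chromatin and splicing subunits that are exchanged as progenitors become neurons had 2 of 23 members lower and none higher, a lower share close to that over all genes. Actl6a, the progenitor subunit of the BAF complex, stood at 69.9, 70.9 and 90.6 CPM on d12 and 47.2, 47.3 and 40.6 CPM on d15 (log2 fold change of -0.78 ± 0.13, adjusted p = 0.0209), while its neuronal replacement Actl6b was higher in every d15 library without passing (log2 fold change of 0.54 ± 0.23, adjusted p = 0.139). Counts were 8 higher and 4 lower without d12 replicate 2, 5 and 2 without d12 replicate 3, and none without d12 replicate 1, where 13 had an unadjusted p under 0.05. Of 29 neuropeptide and monoamine genes, 4 rose and 2 fell. The 4 that rose encode hypothalamic or limbic peptides of low level, with Avp, vasopressin, at 0, 0.116 and 0 CPM on d12 and 0.839, 1.24 and 1.24 CPM on d15 and Crh, the stress hormone releasing factor, at 0.309, 0.494 and 0.188 CPM on d12 and 1.297, 1.84 and 1.15 CPM on d15 (log2 fold change of 2.09 ± 0.43, adjusted p = 0.0286). Gal and Tac2 rose by 2 and 1.88 on the log2 scale. Ddc, of monoamine synthesis, stood at 12, 13.6 and 16.7 CPM on d12 and 8.41, 8.52 and 7.93 CPM on d15 (log2 fold change of -0.77 ± 0.17, adjusted p = 0.0319), and Th, the enzyme before it, had a log2 fold change of -0.38 ± 0.19 (adjusted p = 0.194). None of these genes was DE when d12 replicate 1 was left out, where 14 had an unadjusted p under 0.05. In the fits without d12 replicate 2 and 3 the counts were 3 higher and 3 lower, below the shares over all genes in that fit, and 3 higher and 1 lower.

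Of the metabolic lists, the cholesterol list had 4 of 24 members lower (16.7%) and none higher (median -0.197, and -0.13 without d12 replicate 3). Insig1, a sterol sensor, stood at 84.8, 76.1 and 94.3 CPM on d12 and 56.7, 61.5 and 55.2 CPM on d15 (log2 fold change of -0.56 ± 0.11, adjusted p = 0.0267), apart between days. In the hypoxia and glycolysis list 4 of 30 rose (13.3%) and none fell, with medians of -0.16 to -0.04 over the fits without 1 library. Ndrg1 stood at 5.66, 10.1 and 3.57 CPM on d12 and 29.1, 27.8 and 27.99 CPM on d15 (log2 fold change of 2.13 ± 0.35, adjusted p = 0.0201), and the hexokinase Hk1 at 57.9, 96.2 and 34.1 CPM on d12 and 154, 164 and 186 CPM on d15 (log2 fold change of 1.42 ± 0.34, adjusted p = 0.0373). Pfkp and the neuronal enolase Eno2 rose by 1.29 and 1.13 on the log2 scale, while Slc2a1, the glucose transporter of brain vessels, overlapped between days. No gene of either list was DE without d12 replicate 1, where 6 cholesterol and 13 glycolysis genes had an unadjusted p under 0.05. The fit without d12 replicate 2 had 7 cholesterol genes lower and 1 higher, and 6 glycolysis genes higher and 1 lower.

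Slc7a11, which encodes the cystine and glutamate exchanger xCT and lies on the minus strand at chr3:49846975-50398070, had the largest rise among amino acid genes. It stood at 12.7, 16.3 and 8.61 CPM on d12 and 120.2, 114 and 117 CPM on d15 (log2 fold change of 3.22 ± 0.23, adjusted p = 0.00600), a mean of 12.6 ± 3.87 CPM on d12 and 117 ± 3.28 CPM on d15 (SD, n = 3). The list itself was mixed, with 3 of 28 higher (10.7%) and 2 lower (7.14%), shares near those over all genes, and a median of 0.002. Without overlap between the days, 8 members were higher and 9 lower on d15, against 21.7% and 23.4% of all genes. Atf4, the transcription factor of the amino acid stress response, stood at 166, 145 and 169 CPM on d12 and 108, 106 and 104 CPM on d15 (log2 fold change of -0.59 ± 0.097, adjusted p = 0.0202). The regulation of Slc7a11 was not tested. Asns, asparagine synthetase, stood at 14.96, 16.9 and 16.6 CPM on d12 and 24.8, 27.2 and 30.6 CPM on d15 (log2 fold change of 0.77 ± 0.13, adjusted p = 0.0202), and the neutral amino acid transporters Slc1a4 and Slc1a5 had log2 fold changes of 0.85 and -0.92, both DE. In the fits without d12 replicate 1 and without d15 replicate 1, Slc7a11 was the DE member of the list, with adjusted p of 0.0396 and 0.0430, and without d15 replicate 2 or 3 its adjusted p was 0.0570 and 0.0568. The list had 9 members higher and 3 lower without d12 replicate 2, the latter below the share over all genes in that fit, and 3 and 3 without d12 replicate 3, with medians of -0.06 to 0.13 over the fits without 1 library.

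The same days in the Cav1-null strain gave a test of whether a change differed between strains. Cav1 checked the labels, at 10.6 to 19.2 CPM in the C57BL/6J libraries and at most 0.212 CPM in the Cav1-null ones. In an interaction test over these 12 libraries, 0.00472% of the 21191 tested genes differed between strains in their change from d12 to d15, and that single gene was Slc7a11. Scaled over the 12 libraries, it stood at 13.1, 17.1 and 8.91 CPM on d12 and 125.2, 118.5 and 121.9 CPM on d15 in C57BL/6J, against 13, 10.5 and 13.4 CPM on d12 and 11, 11.2 and 12.6 CPM on d15 in Cav1-null. The C57BL/6J d15 libraries stood apart from the other 9. The difference of the changes was 3.31 ± 0.27 on the log2 scale (adjusted p = 0.000523), and within Cav1-null the change was -0.07 (adjusted p = 0.804). The test gave 8, 1618 and 4 such genes without C57BL/6J d12 replicate 1, 2 or 3, and 2 without Cav1-null d15 replicate 2. In 1 edgeR model of all 27 libraries no gene passed, with 1987 at an unadjusted p under 0.05, and DESeq2 gave 428.

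**Figure D5:**
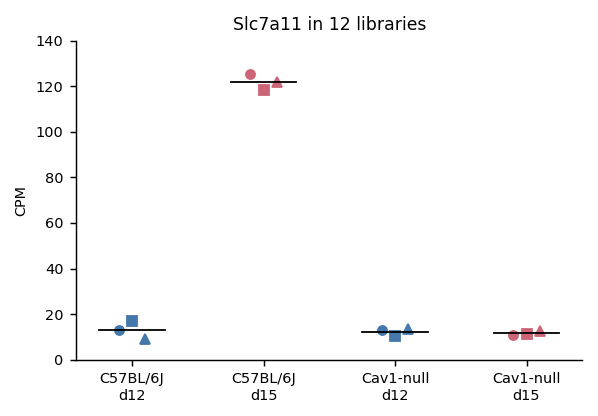
Slc7a11 in CPM (linear axis) in the 12 libraries of C57BL/6J and Cav1-null on d12 and d15. Points are libraries and bars are means. The C57BL/6J d15 libraries lie between 118.5 and 125.2 CPM, and the other 9 libraries between 8.91 and 17.1 CPM.

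For the lists, the Cav1-null strain gave its own values from separate fetuses. In its own fit 11.6% of genes were higher and 11.8% lower on d15. Mitosis had 55 of 56 lower (median -1.24), replication 43 of 50 (median -0.93), release genes 29 of 40 higher (median 0.61) and receptors 29 of 39 higher (median 1.04). Radial glia genes gave 22 of 35 lower and 2 higher (median -0.82), against 8 lower and 1 higher in C57BL/6J. Notch genes gave 17 of 22 lower and 2 higher, against 8 and 0. Connective tissue and cartilage genes had 9 of 21 lower and 0 higher (median -2.29), against 0 and 0 in C57BL/6J (median 0.14). The part of these transcripts in the Cav1-null lists was not tested. Other lists also had more members lower on d15 in the Cav1-null strain than in C57BL/6J. Axon guidance had 9 of 46 higher and 14 lower (median -0.02) against 5 and 2 (median 0.48), GABAergic genes 9 of 37 higher and 4 lower (median 0.04) against 7 and 0 (median 0.46), and the glycolysis list 5 of 30 higher and 12 lower (median -0.37) against 4 and 0 (median -0.07). Whether these list counts differ between the strains was not tested, and no radial glia or Notch gene passed the interaction test.

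The largest single changes in the table are of mixed kind. Taking the DE genes of moderate or high level (mean log2 CPM 3 or more) without overlap between the days, the 3 largest falls were embryonic globins of primitive red cells. Hbb-bh1, at chr7:103490844-103492371, stood at 7.95, 4.25 and 314 CPM on d12 and 0.381, 0.757 and 1.01 CPM on d15 (log2 fold change of -7.24 ± 1.89, adjusted p = 0.0451), and most of that value came from d12 replicate 3, without which the log2 fold change was -3.08. Hbb-y stood at 1102, 845 and 2945 CPM on d12 and 80.4, 80.3 and 61.4 CPM on d15 (log2 fold change of -4.46 ± 0.51, adjusted p = 0.0159), and Hba-x at 86.2, 112 and 623 CPM on d12 and 12.4, 12.7 and 11.6 CPM on d15 (log2 fold change of -4.49 ± 0.799, adjusted p = 0.0222). Without d12 replicate 3 their log2 fold changes were -3.72 and -3.02. The adult alpha globin Hba-a1, which shares sequence with its copy Hba-a2, stood at 231, 361 and 301 CPM on d12 and 224, 221 and 192 CPM on d15 and was not DE (adjusted p = 0.0894). The 17 erythroid genes in the table summed to 2032, 1933 and 4817 CPM on d12 and 1091, 839 and 939.8 CPM on d15, highest in d12 replicate 3, and 5 of 14 tested were lower. Globin genes share sequence, so reads could be split between them. Without d12 replicate 1, 2 of 16 tested erythroid genes were lower.

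After the globins, in the fit to all 6 libraries, came Crabp2, Olig3 and Hmga2, given above, then Tal2, a factor of midbrain GABAergic neurons, at 40.2, 71.4 and 139 CPM on d12 and 15.8, 16.6 and 13.9 CPM on d15 (log2 fold change of -2.44 ± 0.41, adjusted p = 0.0206). Glyctk, a glycerate kinase, was uniform within each day at 16.8, 12.8 and 17.1 CPM on d12 and 3.71, 4.27 and 3.79 CPM on d15 (log2 fold change of -1.99 ± 0.18, adjusted p = 0.0126). Fam181a was the last of the 12 largest falls (log2 fold change of -1.94 ± 0.37, adjusted p = 0.0256). At the other end, Sla, the Src-like adaptor gene at chr15:66651899-66704001, stood at 3.77, 3.96 and 1.88 CPM on d12 and 34.9, 41.3 and 36.3 CPM on d15 (log2 fold change of 3.55 ± 0.28, adjusted p = 0.00868), a mean of 3.202 ± 1.15 CPM on d12 and 37.5 ± 3.38 CPM on d15 (SD, n = 3). Caln1, a neuronal calcium-binding protein, stood at 6.34, 9.71 and 1.88 CPM on d12 and 45.4, 51.6 and 65.6 CPM on d15 (log2 fold change of 3.18 ± 0.52, adjusted p = 0.0201), and Dync1i1, a neuronal dynein subunit, at 5.16, 4.94 and 1.502 CPM on d12 and 29.9, 30.6 and 27.96 CPM on d15 (log2 fold change of 2.93 ± 0.42, adjusted p = 0.0176). All d15 libraries of these genes exceeded all d12 libraries. Slc6a11, a GABA transporter, and Nos1, the neuronal nitric oxide synthase, rose by 2.83 and 2.79 on the log2 scale (for Nos1, 3.58 without d12 replicate 2), and Tmem151a, Stum and 9130024F11Rik by 2.61, 2.61 and 2.73. The last is a long noncoding RNA gene that overlaps a gene on the other strand, and reads in the overlap could belong to either. In each of these 8 genes d12 replicate 3 was the lowest library.

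Transcripts of tissues other than neural cells were also followed. Skeletal muscle, connective tissue, epidermis, eye and trophoblast lists, with 65 tested members, had no DE member in edgeR's test, 8 at an unadjusted p under 0.05 and 5 called by DESeq2. Vessel genes had 2 of 26 higher (7.69%) and 1 lower (3.85%), against 7.08% and 7.8% over all genes, with the endothelial markers Pecam1 and Cdh5 overlapping between days. No vessel gene was DE without d12 replicate 1, where 5 had an unadjusted p under 0.05, while 10 were higher without d12 replicate 2. Genes of microglia summed to 188, 237 and 196 CPM on d12 and 226, 176 and 191 CPM on d15, and 1 of 20 (5%, below the share over all genes), Cd68, fell by 0.700 on the log2 scale. Choroid plexus genes summed to 379, 447 and 319 CPM on d12 and 617, 474 and 576 CPM on d15, with 3 of 14 higher and 1, Otx2, lower (without d12 replicate 1, 0 higher and 1 lower), and the transthyretin gene Ttr stood at 234, 232 and 77.7 CPM on d12 and 424, 325 and 409 CPM on d15, lowest in d12 replicate 3 and not DE (log2 fold change of 1.09 ± 0.39, adjusted p = 0.0906). Pituitary genes gave 1 of 6 lower and yolk sac genes 1 of 8 higher. Among 21 immediate early and heat shock genes, which respond to handling of tissue, 1 rose and 1 fell (4.76% each, below the shares over all genes), and Fos overlapped between days at 0.804, 0.640 and 0.188 CPM on d12 and 0.763, 1.35 and 1.098 CPM on d15. The part of these tissues in the neural results was not tested.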

How the data were processed

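Per the labels and the paper's methods, the authors trimmed the paired reads with cutadapt and fastp, checked them with FastQC, aligned them to GRCm39 with STAR and tested in edgeR. The deposited values used here are raw read counts per gene, not normalized, and the counting tool and its use of strand are not given in the sources used here. Antisense and overlapping genes can therefore share reads. A second deposited table, of counts at splice sites, was not used here.

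Samples were grouped by strain and day from the labels. Genes kept by filterByExpr were normalized by TMM (edgeR 4.0.16, R 4.3.3) and tested by quasi-likelihood, d15 over d12, on the 6 C57BL/6J libraries alone, with Benjamini-Hochberg adjustment over all tested genes at 0.05. The interaction of strain and day was fitted on the 12 libraries of C57BL/6J and Cav1-null. DESeq2 1.42.0 and limma 3.58.1 served as alternatives, with other normalizations, filters, models over 9 or 27 libraries, a block on replicate number and fits without each library in turn. On simulated counts, 59% of genes changed by a log2 fold of 1 and 96% of those changed by 2 were recovered, with 9 false calls among 164. In that simulation 200 of 18704 genes were changed, and each gene was drawn independently of the others. It held no regional or tissue differences between libraries, so its false calls do not measure those in the data. The depth of at least 30527723 reads a library makes counting error small beside the spread between fetuses for genes of moderate or high level. Genes of low level, such as Avp, rest on few reads, and for them counting error can be as large as that spread. Replicate numbers did not pair the samples (correlations of deviations -0.115, 0.0567 and -0.0269).

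Gene lists and the members described were chosen with earlier results of these data known. Genes were named by rule: the 12 largest rises and falls of DE genes with mean log2 CPM of 3 or more and no overlap, and in each list the first 3 tested members and up to 4 DE members of largest change, with the same for genes DE without any 1 library, interaction genes and checks of the labels. Emx1, Six3, Nkx2-1, Pax5, the Hox genes, Sgo2a, Dnmt1, Pola1, Mcm5, Ect2, Gfap, Dll1, Nrn1, Nhlh1, Nhlh2 and Slc12a2 were named after their values were seen. Coordinates, promoters and start sites came from GRCm39 and the GENCODE annotation, which matches the authors' build. Some listed genes are not reported here by name. Figures were drawn with matplotlib 3.10.9.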

Additional observations from a re-analysis of the deposited data

Results flagged for a closer look

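The change of Slc7a11 from d12 to d15 differed between strains by an interaction term in edgeR, with a difference of 3.312 ± 0.27 on the log2 scale (adjusted p = 0.000523, n = 3 per strain and day). Its level was higher on d15 in 3 of 3 C57BL/6J libraries than in any of the other 9 libraries. No group of 3 libraries is large enough for a test of single outlying samples.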

How the results depend on the processing

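The 2850 DE genes became 4480 under DESeq2, 7226 under limma voom with sample quality weights and 1204 when the log2 fold change also had to reach 1 in size, and 2049 to 4228 under the other edgeR settings. Leaving out 1 library gave 0 to 5958. With the replicate block, whose numbers do not pair the samples, edgeR called 0 genes (5654 at an unadjusted p under 0.05). None of the 2850 genes passed in the opposite direction under an alternative that tested it. The share of DE genes that were higher, 47.58%, was 60.65% in the model of 27 libraries, 64.62% with the fold threshold and 35.15% to 54.42% without 1 of the d12 libraries, while the 6 and 2 genes left without d15 replicate 1 or 3 were all higher. The interaction, 1 gene, gave 428 under DESeq2, 46 with no filter, 0 in the model of 27 libraries (1987 unadjusted) and 1 to 1618 without 1 library. With the block it gave 1. Over the single genes named, 3027 values under the alternatives kept direction and call, 708 kept direction and lost the call, and 97 gained it. For the lists, 971 counts or medians stayed and 325 moved. En2, not DE at a log2 fold change of -0.51, turned to 2.733 under limma voom with quality weights, which gave d12 replicate 1, the library lowest in En2, a weight of 2.068 and d12 replicates 2 and 3 weights of 0.34 and 0.247. For the other alternatives the cause was not tested.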
